A study of Mus musculus with 10 samples.

Results

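The 10 genes described here copy and maintain the mitochondrial genome: Polg, Polg2, Twnk, Ssbp1, Primpol, Top1mt, Rnaseh1, Mgme1, Lig3 and Tk2. They were chosen by symbol for their known roles, and all 10 of 10 were found by their Ensembl identifiers among the 22891 genes of the deposited table. The mice (strain label C57/Bl6/N;129SvEv7) were 3 weeks old and not stimulated with hormones, and their whole ovaries gave 5 Uba3 cKO and 5 Control libraries of RNA. Together with a partner protein, the Uba3 product activates NEDD8, which is then attached to cullins and other targets. The labels name neither the deleted part of Uba3, nor the Cre driver, nor the cells in which it acts, nor the alleles that Control ovaries carry. Whether each library came from its own animal is not stated either, and the spread behind the p-values may therefore be technical.

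Mitochondrial DNA is a small circle present in many copies, inherited through the oocyte, which holds a very large pool of it. A dedicated replisome copies it: Twnk, the helicase Twinkle, unwinds the duplex, Ssbp1 coats the single strands, and DNA polymerase gamma, built of the catalytic subunit Polg and the accessory subunit Polg2, extends them. Other enzymes make or remove primers, relieve supercoils, trim and seal the ends, and supply nucleotides. All of these proteins are encoded in the nucleus, so the deposited values are levels of nuclear transcripts and not of mitochondrial DNA.

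The deposited values are log2 levels with closely matching library medians, from 6.29 to 6.44, and the sequencing depth behind them is unknown. Uba3 itself stood at 10.12 ± 0.069 in Uba3 cKO ovaries and 10.12 ± 0.18 in Control ovaries (SD, n = 5 each; exact two-sided permutation test, p = 1), and this level could not serve as a check of the groups, which are named here by their labels. Oocyte and granulosa markers were high as sums in both groups. The summed level of 19 oocyte markers ran from 14.48 to 15.40 in Uba3 cKO and from 14.75 to 15.36 in Control libraries. That of 12 granulosa markers ran from 17.87 to 18.16 and from 17.82 to 17.99 in the same order. Single oocyte markers had means from 5.26 to 12.74 and single granulosa markers from 7.53 to 16.64, so the highest weigh most in the sums. Control replicate 3 stood apart. Its values fell with exon length, with a slope of -0.155 log2 units per doubling against -0.0603 to 0.0584 in the other libraries, and it held the highest or lowest value of all libraries in 49.2% of the 15629 genes tested. It was also the extreme library for 6 of the 10 genes, against 0 to 3 for any other library. Many differences and correlations that it moves by more than 1.5 times are given with and without it where they are described. Values given only over all 10 libraries may depend on it as well.

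None of the 10 genes passed the test of a difference between Uba3 cKO and Control ovaries. By limma with Benjamini-Hochberg adjustment over all 15629 genes, 0 of the 10 passed an adjusted p of 0.05, where the share called among all genes tested was 0%, and each had an adjusted p of 0.9999. At an unadjusted p under 0.05 there were again 0 of the 10, where 1.79% of all genes tested lay, and an exact permutation test gave 0 as well. The groups overlapped in all 10, while they did not overlap in 0.320% of all genes tested. The mean was higher in Uba3 cKO for 5 of the genes and lower for 5, with a median log2 difference of 0.0038 beside 0.0003 over all genes tested. Their 95% intervals reached no further than -0.27 and 0.30 on the log2 scale, and all 10 lay within 0.5 log2 units of 0, as did those of 94.9% of all genes tested. These limits hold for whole ovaries, where fewer cells of a type and less RNA per cell cannot be told apart.

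**Figure D1:**
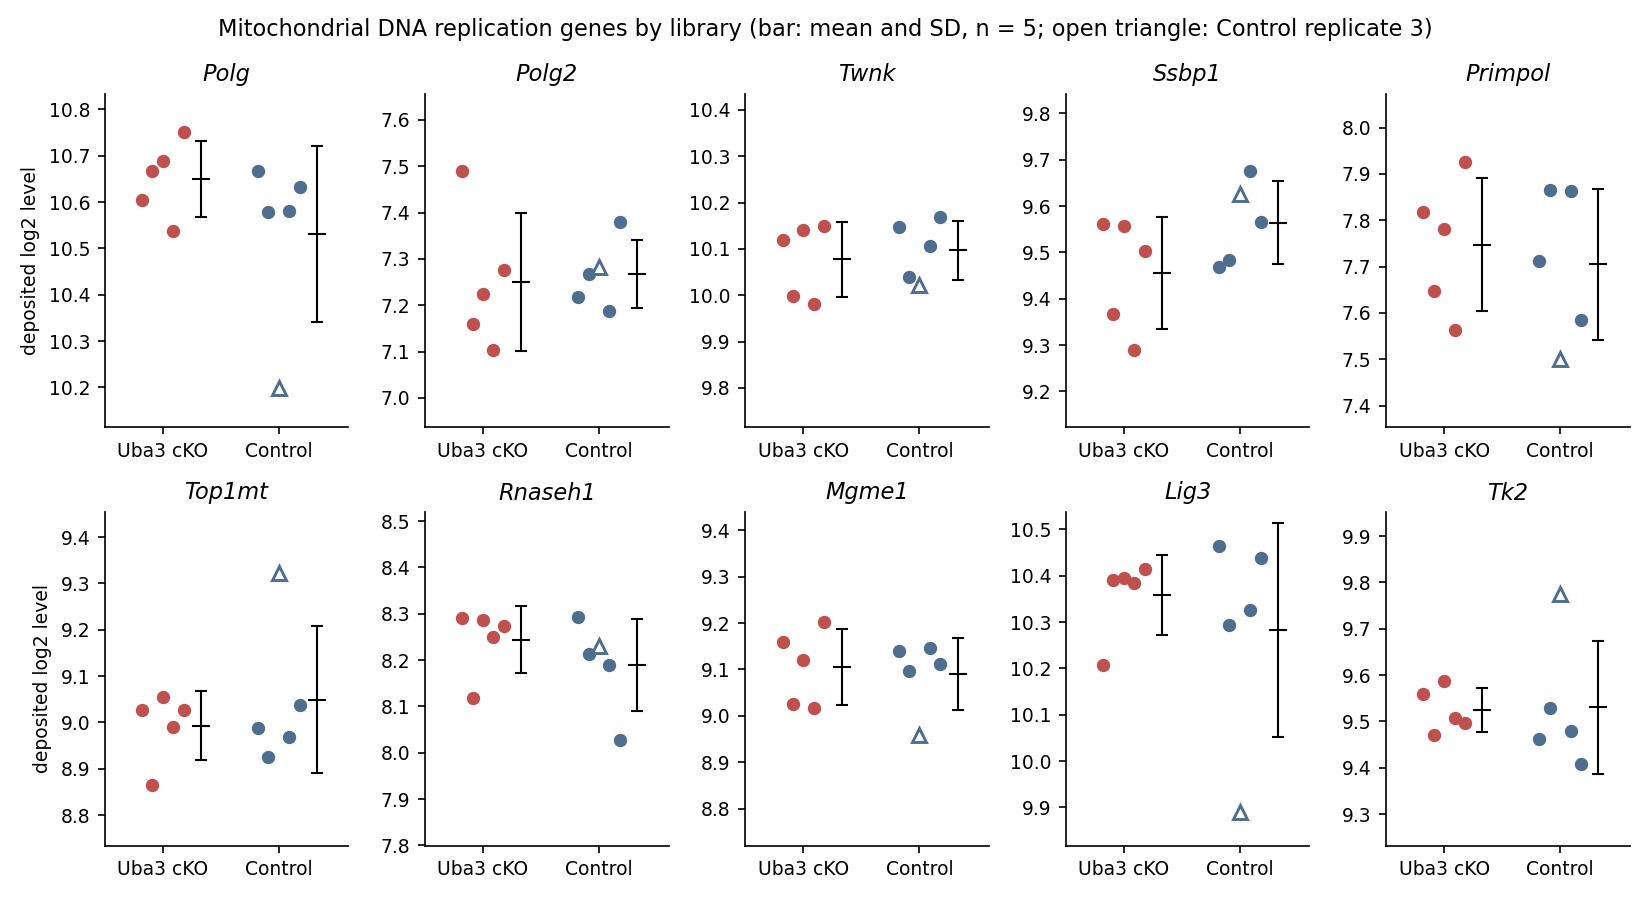
Deposited log2 level (vertical axis, the same span in each panel) of the 10 genes in 5 Uba3 cKO and 5 Control libraries; points are libraries, bars show the mean and SD. The groups overlap in every panel, and Control replicate 3, the open triangle, lies far below the rest for Polg and Lig3 and far above for Top1mt and Tk2.

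The copying machinery comprised Polg, Polg2, Twnk and Ssbp1. Polg (ENSMUSG00000039176, chromosome 7), which polymerises and proofreads the new strand, had values of 10.60, 10.67, 10.69, 10.54 and 10.75 in Uba3 cKO replicates 1 to 5, against 10.67, 10.58, 10.20, 10.58 and 10.63 in Control replicates 1 to 5. The Control range was set by replicate 3, and the other Control values fell inside the Uba3 cKO range. Means were 10.65 ± 0.082 in Uba3 cKO and 10.53 ± 0.19 in Control ovaries (SD, n = 5 each), a log2 difference of 0.12 (standard error 0.086, 95% interval -0.067 to 0.30; unadjusted p = 0.191, adjusted p = 0.9999 by limma). Without Control replicate 3 the difference was 0.035 (standard error 0.053).

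Polg2 (ENSMUSG00000020718, chromosome 11), which clamps the polymerase to its template, was far lower. It measured 7.49, 7.16, 7.22, 7.10 and 7.28 in Uba3 cKO libraries, against 7.22, 7.27, 7.28, 7.19 and 7.38 in Control libraries. Both the highest and the lowest value belonged to Uba3 cKO, in replicates 1 and 4. Its log2 difference was -0.016 (standard error 0.089; adjusted p = 0.9999 by limma).

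Twnk (ENSMUSG00000025209, chromosome 19) had the smallest SD of the 10 genes over all libraries. Its values were 10.12, 9.9985, 10.14, 9.98 and 10.15 in Uba3 cKO libraries, against 10.15, 10.04, 10.02, 10.11 and 10.17 in Control libraries, a range of only 0.19 log2 units over all libraries. Its SD over the 10 libraries was 0.070, where the median SD of the 2730 tested genes within 0.5 log2 units of its mean was 0.12, and 10.5% of them varied less. By the same measure the share was 9.04% for Mgme1 and 9.32% for Rnaseh1. Leaving out Control replicate 3, the SD of Twnk was again 0.070. Those of Tk2 (0.053), Top1mt (0.060), Mgme1 (0.060) and Polg (0.066) were then smaller. The log2 difference of Twnk was -0.019 (standard error 0.059), with an interval from -0.15 to 0.11. If the values are plain log2 levels, which the unnamed transform leaves unknown, this is a fold of 0.904 to 1.08. With Control replicate 3 left out the difference was -0.038 (standard error 0.056).

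Ssbp1 (ENSMUSG00000029911, chromosome 6) had the most negative difference. Uba3 cKO libraries gave 9.56, 9.37, 9.56, 9.29 and 9.50, against 9.47, 9.48, 9.63, 9.68 and 9.57 in Control libraries. All 5 Uba3 cKO values lay below the Control mean, while 2 of the Control values lay within the Uba3 cKO range. Means of 9.46 ± 0.12 and 9.56 ± 0.089 (SD, n = 5 each) gave a log2 difference of -0.11 (standard error 0.072, 95% interval -0.27 to 0.048; unadjusted p = 0.158, adjusted p = 0.9999 by limma). It ranged from -0.14 without Uba3 cKO replicate 1 to -0.067 without Uba3 cKO replicate 4.

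The promoters of these 4 genes share a short motif, and they are shown for that reason; motifs and promoters were chosen after the data were seen, and these 4 after their matches were known. RefSeq windows on GRCm38.p6, from 250 bases before to 50 bases after a transcript start, were at hand for 8 of the 10 genes, with 9 windows because Twnk has 2 starts. The letters CCGGAAG, the core bound by the ETS factor GABPA, known in the field as nuclear respiratory factor 2, occurred on either strand in windows of Polg, Polg2, Twnk and Ssbp1 and also of Tk2. That is 5 of 8 genes and 5 of 9 windows, and 8.86% of all 32851 windows of the same length held it. The GC content was 46.7% to 71.0% in the 9 windows and 53.3% to 65.0% in the 5 with the letters. Its median over all windows was 52.7%, and the comparison was not matched for it. The windows lie on chr7:79466224-79466523 (minus strand), chr11:106779488-106779787 (minus strand), chr19:45006308-45006607 (plus strand) and chr6:40471218-40471517 (plus strand) in the order printed, each 5′ to 3′ along its gene, with the match in capitals, written CTTCCGG where it is on the other strand.

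Polg: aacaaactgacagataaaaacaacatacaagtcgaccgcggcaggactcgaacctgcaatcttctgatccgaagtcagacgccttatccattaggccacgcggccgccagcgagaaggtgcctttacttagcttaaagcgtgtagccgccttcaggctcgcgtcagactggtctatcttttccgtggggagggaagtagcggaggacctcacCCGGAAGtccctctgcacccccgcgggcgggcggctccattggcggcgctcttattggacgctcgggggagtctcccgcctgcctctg
Polg2: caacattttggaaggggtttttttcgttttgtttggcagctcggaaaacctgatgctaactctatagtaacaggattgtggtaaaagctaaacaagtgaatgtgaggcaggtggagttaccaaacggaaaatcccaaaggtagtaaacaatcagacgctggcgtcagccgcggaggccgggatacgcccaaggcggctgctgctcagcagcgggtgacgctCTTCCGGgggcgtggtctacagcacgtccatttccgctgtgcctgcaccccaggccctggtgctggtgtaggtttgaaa
Twnk, second start: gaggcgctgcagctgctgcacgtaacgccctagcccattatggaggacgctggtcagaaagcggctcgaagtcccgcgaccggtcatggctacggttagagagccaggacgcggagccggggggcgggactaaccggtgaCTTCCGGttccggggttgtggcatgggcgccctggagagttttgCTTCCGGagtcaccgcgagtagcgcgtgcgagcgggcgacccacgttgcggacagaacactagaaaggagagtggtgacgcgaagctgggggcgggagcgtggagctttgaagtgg
Ssbp1: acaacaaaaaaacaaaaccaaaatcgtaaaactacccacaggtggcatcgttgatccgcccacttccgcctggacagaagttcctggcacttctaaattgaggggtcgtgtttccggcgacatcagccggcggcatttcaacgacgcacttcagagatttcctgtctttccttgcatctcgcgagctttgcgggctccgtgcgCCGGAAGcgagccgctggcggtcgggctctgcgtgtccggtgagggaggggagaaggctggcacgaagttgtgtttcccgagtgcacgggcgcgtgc

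Counted from the transcript start, the match began at -38 in Polg, -29 in Polg2, -47 in Ssbp1 and -12 in Tk2. The first Twnk window held none and the second held 2. GGGCGG, the core bound by SP1, was searched on both strands too, lay in windows of 6 of the 8 genes and in 35.7% of all windows, and had 0 overlaps with CCGGAAG in the 9 windows. A motif of NRF1, another regulator of nuclear genes for mitochondrial proteins, was searched in 2 forms. A long form, searched first, lay in a window of 1 of the 8 genes, Lig3, and in 4.60% of all windows. The shorter TGCGCA lay in 0 of the 8 and in 7.76% of all windows. CCGGAAG is thus 1 of several motifs tried, and its share among these genes was not tested. Such matches describe the letters and show no binding. The factors themselves, chosen after the values were seen, had log2 differences of -0.0094 for Gabpa (standard error 0.100), -0.056 for its partner Gabpb1 (standard error 0.068) and -0.0099 for Sp1 (standard error 0.089), and 0 of these 3 passed adjustment by limma or an unadjusted p under 0.05. With Control replicate 3 left out they were -0.10, -0.068 and -0.070 in that order.

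Priming and topology were represented by Primpol and Top1mt. Primpol (ENSMUSG00000038225, chromosome 8), a primase and polymerase that restarts stalled forks in the nucleus and in mitochondria, stood at 7.82, 7.65, 7.78, 7.56 and 7.93 in Uba3 cKO libraries, against 7.71, 7.87, 7.50, 7.86 and 7.58 in Control libraries. The values were spread over the same range in both groups. Its log2 difference was 0.042 (standard error 0.10, 95% interval -0.17 to 0.26), the widest interval of the 10, and -0.0085 without Control replicate 3.

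Top1mt (ENSMUSG00000000934, chromosome 15), the topoisomerase that relaxes supercoils in mitochondrial DNA, measured 9.03, 8.87, 9.05, 8.99 and 9.03 in Uba3 cKO libraries, against 8.99, 8.93, 9.32, 8.97 and 9.04 in Control libraries. Control replicate 3 was 0.34 log2 units above the mean of the other 9 libraries, which spanned 8.87 to 9.05. The log2 difference of -0.056 (standard error 0.081) turned to 0.013 (standard error 0.059) without that library. Its nuclear paralogue Top1 stood at 11.64 ± 0.13 in Uba3 cKO and 11.65 ± 0.16 in Control ovaries (SD, n = 5 each), a log2 difference of -0.0034 (standard error 0.085), and of -0.065 without Control replicate 3.

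End processing and ligation rest on Rnaseh1, Mgme1 and Lig3. Rnaseh1 (ENSMUSG00000020630, chromosome 12), which removes RNA primers from DNA and works in the nucleus as well as in mitochondria, had values of 8.29, 8.12, 8.29, 8.25 and 8.27 in Uba3 cKO libraries, against 8.29, 8.21, 8.23, 8.19 and 8.03 in Control libraries. In 4 of 5 Uba3 cKO libraries it was above the Control mean, and replicate 2 was below it. For Rnaseh1 the log2 difference was 0.054 (standard error 0.074; adjusted p = 0.9999 by limma). Leaving out 1 library, it ran from 0.013 without Control replicate 5 to 0.085 without Uba3 cKO replicate 2.

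Mgme1 (ENSMUSG00000027424, chromosome 2), the exonuclease that trims flaps at the ends of new strands, gave 9.16, 9.03, 9.12, 9.02 and 9.20 in Uba3 cKO libraries, against 9.14, 9.10, 8.96, 9.15 and 9.11 in Control libraries. Control replicate 3 was again the lowest of all. The log2 difference was 0.015 (standard error 0.066) with it and -0.019 (standard error 0.058) without it.

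Lig3 (ENSMUSG00000020697, chromosome 11), the DNA ligase of mitochondria, which also seals breaks in nuclear DNA together with Xrcc1, measured 10.21, 10.39, 10.40, 10.38 and 10.41 in Uba3 cKO libraries, against 10.46, 10.29, 9.89, 10.33 and 10.44 in Control libraries. Both groups held a low library, replicate 1 of Uba3 cKO and replicate 3 of Control. Of the 10 genes it varied most over all libraries, with an SD of 0.17. Leaving out Control replicate 3, its SD was 0.080, below those of Primpol (0.13), Polg2 (0.12), Ssbp1 (0.11) and Rnaseh1 (0.092). Lig3 means were 10.36 ± 0.085 in Uba3 cKO and 10.28 ± 0.23 in Control ovaries (SD, n = 5 each). The log2 difference was 0.076 (standard error 0.098) and turned to -0.022 (standard error 0.060) without Control replicate 3.

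Tk2 (ENSMUSG00000035824, chromosome 8) supplies precursors: this kinase phosphorylates thymidine and deoxycytidine inside mitochondria. It stood at 9.56, 9.47, 9.59, 9.51 and 9.50 in Uba3 cKO libraries, against 9.46, 9.53, 9.78, 9.48 and 9.41 in Control libraries. The highest and the lowest library were both Control, replicates 3 and 5. The log2 difference was -0.0070 (standard error 0.072), and 0.054 (standard error 0.051) without Control replicate 3.

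**Figure D2:**
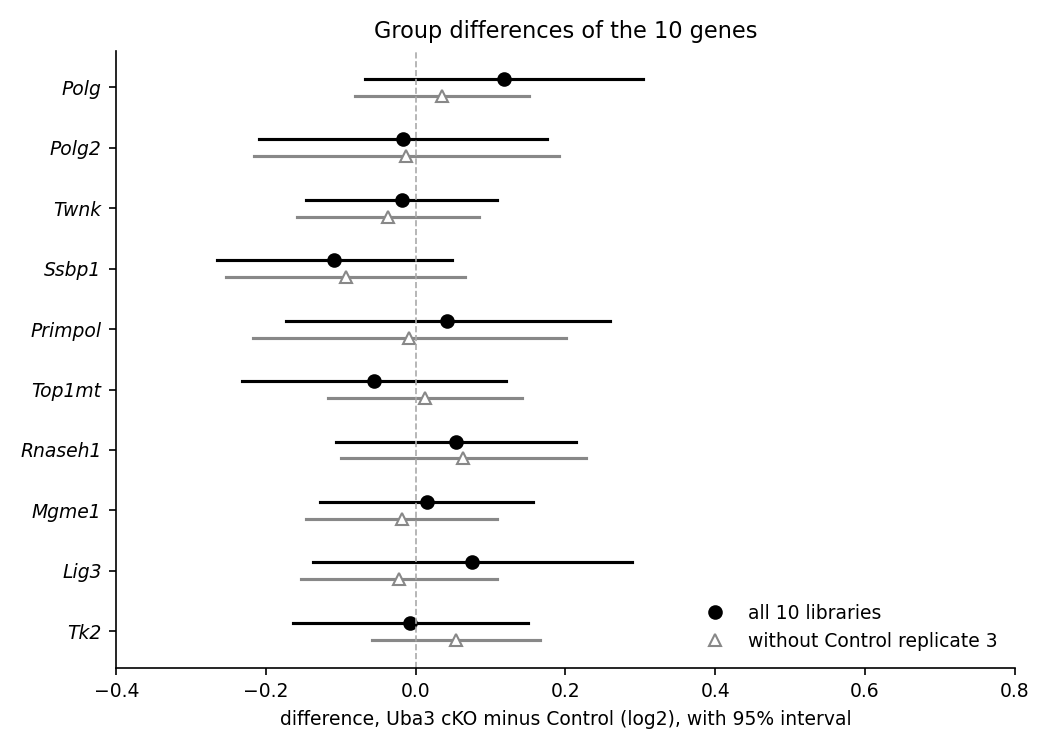
Log2 difference, Uba3 cKO minus Control (horizontal axis), with its 95% interval from limma for the 10 genes, over all 10 libraries (black circles) and without Control replicate 3 (open triangles). Every interval includes 0, and leaving the library out moves Polg and Lig3 down and Tk2 and Top1mt up.

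Levels between genes were compared per kilobase of exon, on the log2 scale. Twnk led with 8.07 ± 0.081 in Uba3 cKO and 8.09 ± 0.065 in Control ovaries (SD, n = 5 each), followed by Top1mt, Tk2, Lig3, Mgme1, Polg, Rnaseh1, Ssbp1, Polg2 and Primpol, which closed the order with 5.07 ± 0.14 and 5.02 ± 0.16. The order was the same in both groups. Between neighbours, the gap of Polg2 and Primpol (0.090) was smaller than the SD of either gene over the 10 libraries (0.11 and 0.15). The gap of Twnk and Top1mt (0.093) was smaller than the SD of Top1mt (0.12) but not that of Twnk, and the gap of Lig3 and Mgme1 (0.10) was smaller than the SD of Lig3 (0.17) but not that of Mgme1 (0.075). The other 6 gaps exceeded the SD of both genes. The widest step, 1.31 log2 units, separated Ssbp1 from Polg2. Polg, at 7.22 ± 0.082 in Uba3 cKO and 7.11 ± 0.19 in Control ovaries, thus stood well above its partner subunit Polg2, at 5.13 ± 0.15 and 5.14 ± 0.073. Lengths are the union of annotated exons, which is long for Ssbp1 (8360 bases) and Polg (10742 bases) against a longest transcript of 4398 and 7837 bases. With the longest transcript in its place Tk2 moved ahead of Top1mt, Polg ahead of Mgme1 and Ssbp1 ahead of Rnaseh1.

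**Figure D3:**
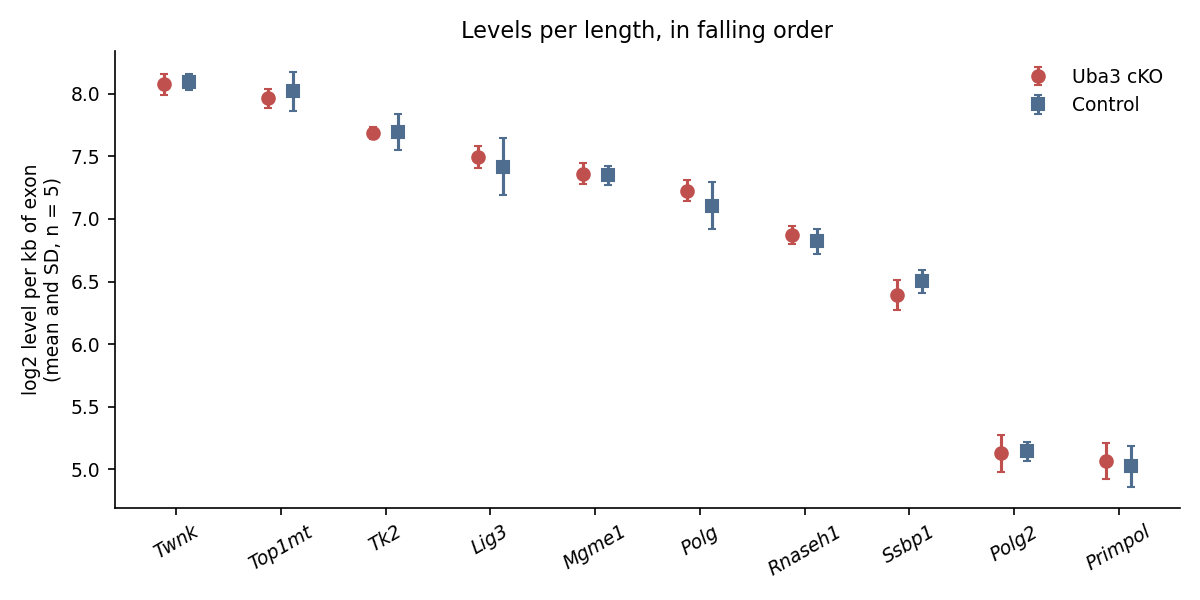
Log2 level per kilobase of exon (vertical axis) of the 10 genes in falling order, with mean and SD over 5 Uba3 cKO libraries (circles) and 5 Control libraries (squares). Polg2 and Primpol lie more than 1 log2 unit below the other genes in both groups.

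Exons that overlap another gene could add or lose reads, since the labels do not say whether counting used the strand. By the GENCODE M21 annotation, 25.1% of the exon bases of Lig3 overlap Rffl, 17.3% of Primpol overlap mainly Cenpu, 12.6% of Twnk overlap Mrpl43 and 8.57% of Polg overlap Fanci, all on the opposite strand. Fanci varied with Polg, with a Pearson r of 0.93 over the 10 libraries as a description and of 0.49 without Control replicate 3. Cenpu had an r of 0.42 with Primpol, and of 0.024 without that library. Mrpl43 had an r of -0.25 with Twnk and Rffl an r of -0.36 with Lig3. Fanci stood at 8.64 ± 0.089 in Uba3 cKO and 8.35 ± 0.41 in Control ovaries (SD, n = 5 each; log2 difference 0.29, standard error 0.16, adjusted p = 0.9999 by limma), and the difference was 0.11 without Control replicate 3. The part of shared reads in the Polg values was not tested. Isoforms cannot be told apart at the gene level, so nuclear and mitochondrial forms of Lig3 and Rnaseh1 are counted together.

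Other genes of mitochondrial DNA maintenance formed 5 lists, with 44 of 45 genes tested. The nucleotide phosphorylase Tymp had a mean below the filter. By limma 0 of the 44 passed adjustment and 0 were at an unadjusted p under 0.05, by which 0.973% of all genes tested were higher and 0.819% lower in Uba3 cKO, and an exact permutation test gave 0 as well. The mean was higher in Uba3 cKO for 24 and lower for 20, and the median difference was 0.013. The counts were 21 and 23 without Control replicate 3, the sign changed for 11 of the 44, the median was -0.0055, and again 0 were at an unadjusted p under 0.05.

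**Figure D4:**
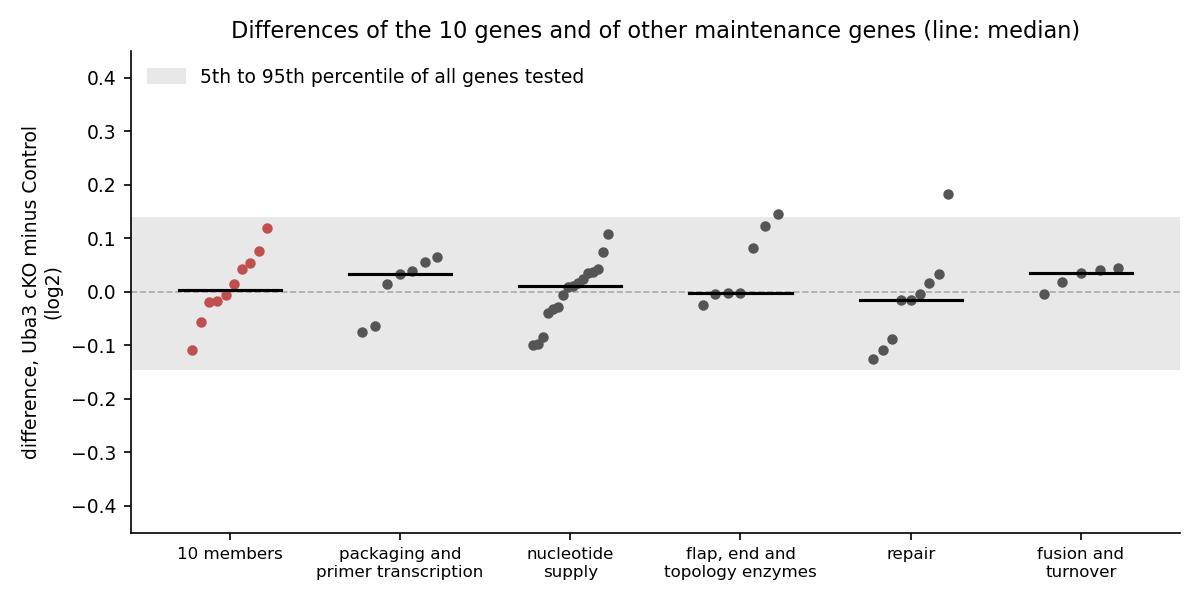
Log2 difference, Uba3 cKO minus Control (vertical axis), of the 10 genes (left) and of the genes of 5 other maintenance lists; points are genes, lines are medians. All 10 lie within the grey band from -0.14 to 0.14, the 5th to 95th percentile of the differences of all genes tested.

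Packaging and primer transcription had the higher mean in 5 of 7 genes (median difference 0.034). Tfam, which coats mitochondrial DNA, stood at 10.06 ± 0.034 in Uba3 cKO and 10.02 ± 0.086 in Control ovaries, and Polrmt, the RNA polymerase whose transcripts prime replication, at 9.72 ± 0.047 and 9.67 ± 0.064 (SD, n = 5 each). The Tfam difference was 0.038, and 0.021 without Control replicate 3. Lonp1, a matrix protease that degrades Tfam, had a log2 difference of 0.065 (standard error 0.054) and Tefm, an elongation factor, of -0.076 (standard error 0.088).

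Nucleotide supply had the higher mean in 9 of 16 genes (median difference 0.010). Rrm2b, the p53-inducible subunit of ribonucleotide reductase, stood at 8.88 ± 0.13 in Uba3 cKO and 8.96 ± 0.030 in Control ovaries, and Dguok, the purine counterpart of Tk2, at 8.56 ± 0.12 and 8.52 ± 0.20 (SD, n = 5 each). Nt5m, a mitochondrial nucleotidase, differed by -0.097 (standard error 0.085), Mpv17, an inner membrane protein lost in depletion syndromes, by -0.099 (standard error 0.088), and Cmpk2, a mitochondrial nucleotide kinase, by 0.11 (standard error 0.11). Leaving out Control replicate 3 gave -0.032 for Nt5m and -0.040 for Mpv17, and that of Dguok was 0.097, against 0.042 with it.

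Flap, end and topology enzymes had the higher mean in 3 of 7 genes. Fen1, the flap endonuclease, stood at 6.60 ± 0.11 in Uba3 cKO and 6.45 ± 0.15 in Control ovaries, and Dna2, a helicase and nuclease, at 8.36 ± 0.078 and 8.24 ± 0.19 (SD, n = 5 each). The log2 differences were 0.15 for Fen1 (standard error 0.095) and 0.12 for Dna2 (standard error 0.094), and without Control replicate 3 they were 0.082 and 0.045. The nucleases Endog and Exog differed by 0.082 and -0.026, and by 0.15 and -0.0063 without that library.

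Repair genes had the higher mean in 3 of 9, and in 5 of 9 without Control replicate 3. Apex1, the endonuclease that cuts at abasic sites, had a log2 difference of 0.18 (standard error 0.12), with 9.37 ± 0.13 in Uba3 cKO and 9.19 ± 0.26 in Control ovaries (SD, n = 5 each). The repair polymerase Polb differed by -0.12 (standard error 0.088), Tdp1, which clears trapped topoisomerase from DNA, by -0.089 (standard error 0.067), and the glycosylase Mutyh by -0.11 (standard error 0.090). Leaving out Control replicate 3 gave differences of 0.077 for Apex1, -0.071 for Polb and -0.054 for Tdp1.

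Genes of fusion and turnover had the higher mean in 4 of 5, with differences from -0.0034 to 0.045 (the membrane dynamin Opa1) and values of 0.034 for the nucleotide carrier Slc25a4, 0.041 for Fbxl4 and 0.018 for the mitofusin Mfn2. This count rested on 1 library: without Control replicate 3 it was 1 of 5, with -0.037 for Opa1, -0.028 for Fbxl4, -0.011 for Mfn2 and 0.046 for Slc25a4.

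The mean level of 12 tested transcripts of the mitochondrial genome itself was 11.37 ± 0.034 in Uba3 cKO and 11.60 ± 0.24 in Control ovaries (SD, n = 5 each; exact two-sided permutation test, p = 0.0556). All 12 had the lower mean in Uba3 cKO, with a median difference of -0.23 log2 units, and for 3 of the 12 limma gave an unadjusted p under 0.05, where 0.819% of all genes tested lay in that direction; 0 passed adjustment. Control replicate 3 was the highest library there too, at 11.98. Without it the Control mean was 11.51 ± 0.14 (SD, n = 4), and the difference was -0.13 (exact two-sided permutation test, p = 0.0714), against -0.23 with it. All 12 still had the lower mean, and 0 of them were at an unadjusted p under 0.05. The 12, of 13 listed, are transcripts of the same genome, so these counts are not of separate observations.

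Variation between libraries was then set against library measures. The 10 genes were compared with 3 measures (the mean of 19 oocyte markers, the mean of the 12 mitochondrially encoded transcripts and the slope on exon length), and the 6 pairs among Polg, Polg2, Twnk and Ssbp1 with each other. Of these 36 relations over 10 libraries, 2 passed Benjamini-Hochberg adjustment of a two-sided permutation test of Pearson's r, both with the length slope. Lig3 was higher where long transcripts were higher (r = 0.95, permutation p = 0.00127, adjusted p = 0.0229; rho = 0.68, permutation p = 0.0348, adjusted p = 0.178). Tk2 went the other way (r = -0.93, permutation p = 0.00078, adjusted p = 0.0229; rho = -0.84, permutation p = 0.00367, adjusted p = 0.125). Among all genes tested, 1.29% had a larger absolute r with the slope than Lig3 and 2.55% a larger one than Tk2.

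Without the extreme libraries neither relation passed adjustment. The absolute r of Tk2 exceeded that of Lig3 with Control replicate 3 and Uba3 cKO replicate 1 left out. With Control replicate 3 alone left out, that of Lig3 was the larger. Without Control replicate 3 and Uba3 cKO replicate 1, which had the steepest slopes, r was 0.51 for Lig3 (permutation p = 0.203, adjusted p = 0.672) and -0.77 for Tk2 (permutation p = 0.0205, adjusted p = 0.263). Without Control replicate 3 alone, an alternative chosen after its slope was seen, r was 0.81 for Lig3 (permutation p = 0.0112) and -0.75 for Tk2 (permutation p = 0.0208), with an adjusted p of 0.266 for each. The longest annotated transcripts of Lig3 and Polg have 5957 and 7837 bases, and those of Tk2 and Top1mt 2406 and 1903 bases. The slope was fitted over 9182 genes, among them those of the 10 with a mean of at least 8 log2 units. The part of transcript length or RNA quality in these values was not tested.

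**Figure D5:**
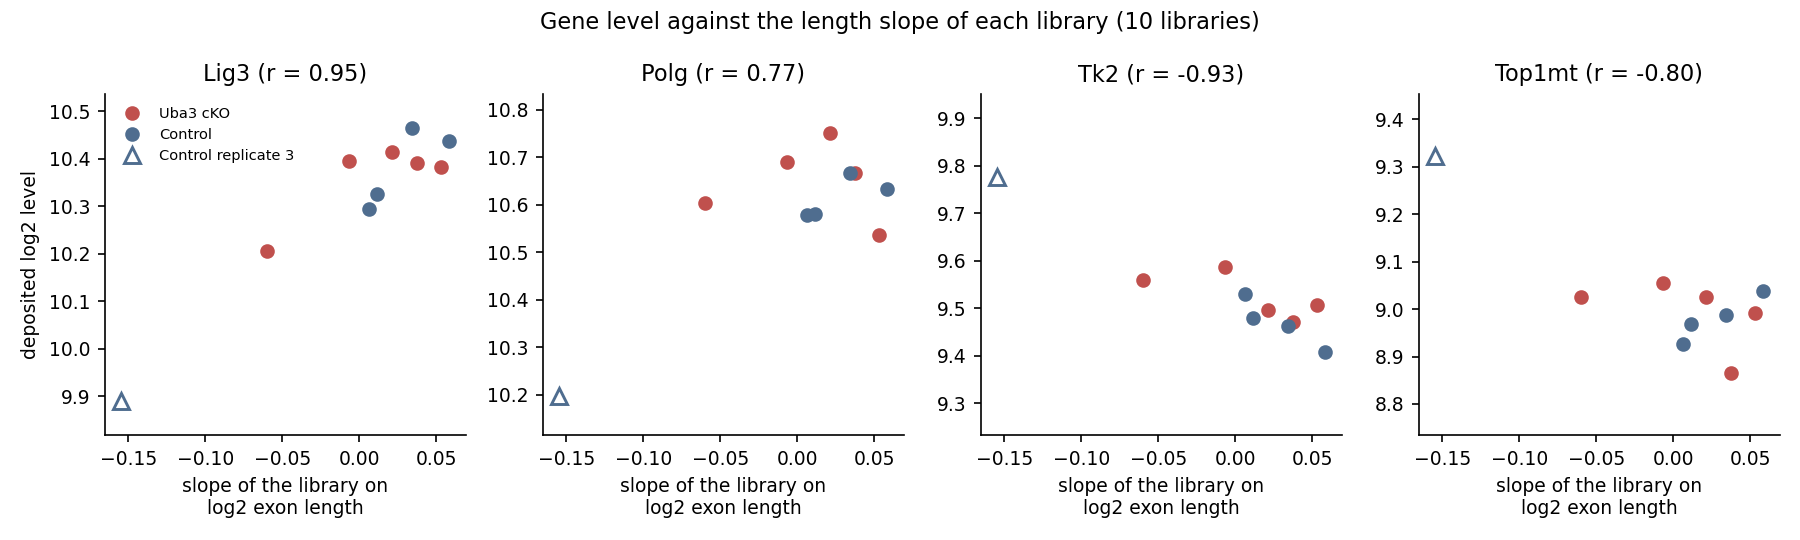
Deposited log2 level (vertical axis) of Lig3, Polg, Tk2 and Top1mt against the slope of each library on log2 exon length (horizontal axis), for 5 Uba3 cKO and 5 Control libraries. Control replicate 3 lies at a slope of -0.155, far from the rest, and for Polg and Top1mt little relation is left without it.

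Polg followed the mitochondrially encoded mean most closely, and with the opposite sign (r = -0.89, permutation p = 0.0062, adjusted p = 0.0744; rho = -0.76, permutation p = 0.0147, adjusted p = 0.176). Only 0.410% of all genes tested had a larger absolute r. Leaving out Control replicate 3 alone gave r = -0.53 (permutation p = 0.151, adjusted p = 0.364). Without Control replicates 3 and 4, the libraries farthest from the median, r was -0.49 (permutation p = 0.224, adjusted p = 0.672), so this relation too rests on those samples. With the oocyte marker mean, Twnk had r = -0.73 (permutation p = 0.0222, adjusted p = 0.172; rho = -0.68, permutation p = 0.0342, adjusted p = 0.178), and r = -0.65 (adjusted permutation p = 0.672) without Uba3 cKO replicate 5 and Control replicate 1, the farthest from the median. Mgme1 had r = -0.67 (permutation p = 0.0349, adjusted p = 0.180; rho = -0.59, permutation p = 0.0803, adjusted p = 0.289) and r = -0.49 (adjusted permutation p = 0.672) without the same libraries. By rank, Polg (rho = -0.81, permutation p = 0.00695, adjusted p = 0.125) and Lig3 (rho = -0.71, permutation p = 0.026, adjusted p = 0.178) had larger absolute values with this measure. Their r was -0.54 and -0.47, and -0.36 and -0.34 without the same libraries. Of all genes tested, 8.08% had a larger absolute r with this measure than Twnk and 11.8% than Mgme1. The shares were 25.0% for Polg and 33.3% for Lig3. With Control replicate 3 alone left out, r was -0.70 for Twnk, -0.68 for Mgme1, -0.72 for Polg and -0.52 for Lig3, and 0 passed adjustment. Within the replisome 4 of the 6 pairs had r from 0.50 to 0.53 and 0 passed adjustment. Polg with Twnk had r = 0.51 (permutation p = 0.101, adjusted p = 0.277; rho = 0.67, permutation p = 0.0395, adjusted p = 0.178), and r = 0.80 (permutation p = 0.00412, adjusted p = 0.148) without Uba3 cKO replicates 2 and 4. Twnk with Ssbp1 had the largest r by a narrow margin (r = 0.53, permutation p = 0.116, adjusted p = 0.277; rho = 0.35, permutation p = 0.331, adjusted p = 0.597), with r = -0.23 without the same libraries. Leaving out only Control replicate 3 gave this pair r = 0.73 (permutation p = 0.0238, adjusted p = 0.266). The polymerase subunits Polg and Polg2 had r = -0.024 (permutation p = 0.939, adjusted p = 0.939; rho = 0.030, permutation p = 0.945, adjusted p = 0.972), and r = -0.18 without Uba3 cKO replicates 1 and 4. No relation was computed within a group, since each holds 5 libraries.

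Among 9206 other genes with a mean of at least 8, those most like Polg by Pearson's r over the 10 libraries were Tm9sf1 (0.98), Sec61a2 (0.96) and Nme7 (0.96). Without Control replicate 3 these values were 0.89, 0.77 and 0.81. Most like Twnk were Eif3l (0.96), E130311K13Rik (0.96) and Eya3 (0.96), and without that library they had 0.97, 0.96 and 0.96. As the highest of many values, they are descriptions.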

How the data were processed

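Whole-ovary RNA was sequenced on a NovaSeq from TruSeq libraries, per the labels' protocols. The submitters' processing notes name fastp, STAR, featureCounts, DESeq2 and GRCm39, without versions or roles. The authors deposited log2 values, from -0.21 to 20.19, whose transform is not named and from which no counts were recovered, so depth and counting error are unknown. In bins of 2 log2 units starting at means of 2, 4, 6, 8 and 10, the median SD was 0.085, 0.153, 0.174, 0.132 and 0.12, so differences of the lowest genes may be understated.

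A filter kept the 15629 genes whose mean reached 10 in linear units (3.32 in log2), among them all 10 described. The limma package 3.58.1 (R 4.3.3) compared the groups, using a mean-variance trend and Benjamini-Hochberg adjustment at 0.05, tested on simulated data. Exact two-sided permutation tests of 5 against 5 reach p = 0.00794 at the lowest; relations used 100000 resamples. Members, lists and tests were chosen with earlier results of these data known. Symbols matched 22188 of 22891 identifiers. Exon lengths and overlaps came from GENCODE M21 (GRCm38), not the notes' build, and promoters from RefSeq. The longest transcripts were searched with blastn 2.17.0, keeping hits at 90% identity or more that also covered a minimum share of the transcript. Ssbp1 shares 447 bases (10.2%) with Gm12115, Lig3 1826 (30.7%) with Rffl and Primpol 914 (23.2%) with Cenpu. The exon overlaps of Polg and Twnk given above are not among these hits. Named genes were the 10, Uba3, up to 4 per list by smallest p, 5 with roles beside them (Top1, Polrmt, Tfam, Dguok, Rrm2b), and the 3 most like Polg and Twnk. Outside that rule, and after their values were seen, the text also names Gabpa, Gabpb1 and Sp1 (motifs), Fanci, Mrpl43, Rffl and Cenpu (overlapping exons), Gm12115 (similar sequence) and Dip2c (called under 1 alternative). Alternatives covered filters, trend, weights, centring, covariates, block and each library left out. Of 20 oocyte markers listed, 19 were found. The oviduct, immune, endothelial, stromal, theca and erythroid marker sums overlapped between groups.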

Additional observations from a re-analysis of the deposited data

Results flagged for a closer look

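Dixon's ratio at the 95% level was applied to 20 sets of 5 values (10 genes in 2 groups). A library far from the rest was found in 5 of them. For separate sets chance gives about 1 in 20, but these sets share the same 10 libraries. No share over all genes tested is set beside the count, so it is not a result about these genes. In 49.2% of all genes tested, Control replicate 3 held the highest or lowest value of all libraries. Control replicate 3 was the lowest of its group for Polg (10.20) and Mgme1 (8.96) and the highest for Top1mt (9.32). Lig3 in Uba3 cKO replicate 1 (10.21) was the lowest of its group, and so was Rnaseh1 in Uba3 cKO replicate 2 (8.12). Uba3 cKO replicate 1 had the second most negative slope on exon length (-0.0603) after Control replicate 3 (-0.155).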

How the results depend on the processing

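No gene of the 10 and none of the 44 other maintenance genes was called by limma under any of the 19 alternatives, and the lowest adjusted p of the 10 was 0.999. Of 190 differences, 173 kept their sign and 17 changed it. Alternatives that alter only the test, the filter or the trend, and the balanced replicate block, leave each difference as it was. Their signs were fixed in advance and are among the 173 without being a check. With library quality weights Mgme1 gave -0.021, Primpol -0.028 and Tk2 0.032, and with the length slope as a covariate Tk2 gave 0.020; the cause was not tested. Leaving out 1 library, differences ran from -0.022 to 0.12 for Lig3, -0.019 to 0.037 for Mgme1, -0.076 to 0.020 for Polg2, -0.0085 to 0.088 for Primpol, 0.013 to 0.085 for Rnaseh1, -0.038 to 0.054 for Tk2, -0.087 to 0.013 for Top1mt and -0.038 to 0.0052 for Twnk. Over all genes, 1 was called with the length slope as a covariate (Dip2c, log2 difference -0.66, adjusted p = 0.0166, named after its values were seen). Relations called were 4 with values centred on group means (Polg and Lig3 with the mitochondrially encoded mean added), 0 without the 2 farthest libraries and 0 without Control replicate 3, both of which leave fewer samples. The order per length kept 4 of 10 ranks with the longest transcript. Same-numbered replicates correlated from -0.27 to 0.28 over genes, and only for replicate 5 was the same number the best match. This showed no pairing by number, but weak correlations cannot exclude one. The replicate block gave 0 calls. Unknown depth leaves counting error unmeasured.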
